A study of Mus musculus with 2 samples.

Results

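Ribosome biogenesis, the making of new ribosomes in the nucleolus, was followed through 40 genes of that process in single-nucleus RNA sequencing of mouse epididymal WAT, a visceral depot of white adipose tissue. The 40 genes were taken as a list of symbols, by a rule that sets no limit on their values, although earlier results of these data were known when the list was chosen. All 40 were found among the 32285 genes counted. The data comprised 2 libraries of nuclei, HF-PBS and HF-HHT, 1 per condition, each from the pooled frozen tissue of 3 male mice. Mice were 8 weeks old when the high-fat diet (HF) began and received it for 6 weeks. They then received it for 8 further weeks together with intraperitoneal injections 3 times per week of PBS, the control, or of homoharringtonine (HHT). Both groups therefore shared diet, sex and the schedule of injections, and differed in the agent injected. HHT was dissolved in DMSO and diluted in PBS, and the paper does not say that the PBS injections held DMSO. The study used C57BL/6 N and p16-Luc mice, and the sources used here do not say which of these gave the nuclei. With 1 library per condition there are no replicates, so no test of a difference was made, and the 95% intervals given below cover counting error only.

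The nucleolus is where RNA polymerase I transcribes the ribosomal RNA precursor. Small nucleolar ribonucleoproteins (snoRNPs) modify this precursor, a large particle called the small-subunit processome folds and cuts its small-subunit part, and a separate line of assembly factors builds the large subunit. Transcription of many of these genes is known to be driven by MYC, and growing or dividing cells make more ribosomes than resting ones. HHT is a plant alkaloid that binds the ribosome and blocks the elongation of new proteins, and is used against leukemia.

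By role, 4 of the genes act with RNA polymerase I (its catalytic subunits Polr1a and Polr1b, the subunit Polr1c that it shares with RNA polymerase III, and Tcof1, a cofactor of ribosomal DNA transcription). The snoRNP group held 5 genes, the box C/D core proteins Nop56 and Nop58, the methyltransferase Fbl, the pseudouridine synthase Dkc1 and the snoRNP chaperone Nolc1. The small-subunit processome group held 13 genes, Utp4, Utp6, Utp14a, Utp15, Utp18, Utp20, Heatr1, Wdr43, Wdr75, Rrp9, Nop14, Rcl1 and the helicase Ddx10. Late small-subunit maturation was covered by Rrp12, which acts in export, and by the endonuclease Nob1. The large-subunit group held 11 genes, among them Bop1, Pes1 and Wdr12, which form 1 complex, with Rrs1, the RNA methyltransferase Nop2, Nop16, Nip7, Noc2l, Noc3l, Rrp1b and the helicase Ddx18. The remaining 5 are abundant nucleolar proteins with several tasks, Ncl (nucleolin), Npm1 (nucleophosmin), the helicase Ddx21, Mybbp1a and Gnl3 (nucleostemin).

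In the mouse annotation (GENCODE vM21 on GRCm38), 6 of the 40 genes, or 15%, held at least 1 snoRNA gene on their own strand within the gene body, against 259 of 21951 protein-coding genes, or 1.18%. These hosts were Nop56 with 5 snoRNA genes, Nop58 with 4, Ncl, Wdr43 and Gnl3 with 3 each and Dkc1 with 1. Ncl spans chr1:86344719-86359400 on the minus strand, Npm1 spans chr11:33152287-33163206 on the minus strand, and Nolc1 spans chr19:46075863-46085530 on the plus strand. Wdr43 lies at chr17:71615895-71659031 on the plus strand. No member overlapped another protein-coding gene on its own strand, but 11 overlapped one on the opposite strand. Rrs1 (chr1:9545408-9547455, plus strand) ends 493 bases before Adhfe1, which lies on the same strand. Fbl ends 200 bases before Dyrk1b and Nop2 488 bases before Iffo1, each on the same strand too.

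Promoter sequence was matched by symbol for 33 of the 40 genes in a RefSeq table (GRCm38.p6), and the 250 bases before each start were searched. The E-box CACGTG, the letters bound by MYC with its partner MAX and the same on both strands, was present in 2 of the 33 genes, or 6.06%, against 1854 of 27025 genes in the table, or 6.86%. The letters CCGGAAG, bound by ETS factors and searched on both strands, were present in 8 of the 33 genes (Ddx10, Heatr1, Nip7, Nolc1, Nop2, Polr1c, Utp18 and Utp4), or 24.2%, against 7.83% of the table. Median GC content of these windows was 58% for the members and 52.4% for the table, and the median number of CG pairs was 18 against 6. The 100 bases before the start are shown for Nop2 and Utp18, the genes with the E-box, and for Ncl and Nolc1, which rose in T and NK cells, Nolc1 with the largest ratio of the members measured there. Capitals mark CACGTG and the ETS letters, and all run 5′ to 3′ on the strand of the gene. The stretch of Nop2 is chr6:125131783-125131882 (plus), of Utp18 chr11:93885767-93885866 (minus), of Ncl chr1:86359456-86359555 (minus) and of Nolc1 chr19:46075747-46075846 (plus).
Nop2: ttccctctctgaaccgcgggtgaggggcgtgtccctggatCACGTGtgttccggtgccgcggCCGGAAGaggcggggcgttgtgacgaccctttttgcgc
Utp18: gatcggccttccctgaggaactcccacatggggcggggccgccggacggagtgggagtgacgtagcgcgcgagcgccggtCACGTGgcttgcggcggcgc
Ncl: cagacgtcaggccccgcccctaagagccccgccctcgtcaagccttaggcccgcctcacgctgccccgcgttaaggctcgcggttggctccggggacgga
Nolc1: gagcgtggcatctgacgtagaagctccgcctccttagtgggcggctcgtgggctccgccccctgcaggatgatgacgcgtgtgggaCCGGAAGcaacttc
In Nop2 the E-box begins 60 bases before the start, and in Utp18 20 bases before it. The stretches of Ncl and Nolc1 hold no CACGTG.

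The libraries held 76197757 unique molecular identifiers (UMIs, counted RNA molecules) in HF-PBS against 73313558 in HF-HHT, and 6633 and 6416 nuclei were kept, with medians of 4305 and 3959 UMIs. Of the kept barcodes, 13 were shared by the libraries, against 6.26 by chance. Nuclei were grouped into classes from marker genes, with the 40 genes left out of the features used for grouping. Classes with at least 100 nuclei in each library were compared. They were adipocytes (149 nuclei in HF-PBS against 838 in HF-HHT), adipocyte progenitor cells (APCs, 750 and 672), macrophages (3623 and 2268), T and NK cells (661 and 541), dividing nuclei (270 and 221) and mesothelial nuclei (158 and 314). Duct-like epithelium (683 nuclei) and multiciliated nuclei (115) were found in HF-HHT and none in HF-PBS, which allows a share there of up to 0.0556% by the exact interval. Erythroid marker UMIs were more frequent in HF-HHT in every compared class, for example 249 against 45.0 CPM (the UMIs of a gene or list per 1000000 UMIs of the class) in APCs and 477 against 12.5 CPM in T and NK cells.

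The members were detected in every compared class, each of the 40 with at least 1 UMI in both libraries. In HF-PBS the summed level of the 40 genes was 1722 CPM in mesothelial nuclei (95% interval 1650 to 1797), 1091 in T and NK cells (1036 to 1147), 1014 in dividing nuclei, 990 in APCs, 971 in macrophages and 690 in adipocytes (653 to 728). Mesothelial nuclei held the highest level of 32 of the 40 genes among these 6 classes in HF-PBS, and adipocytes the lowest level of 23. Dividing nuclei, APCs and macrophages, the neighbours in the middle of this order, lay close together, and the interval of APCs (962 to 1017) overlapped those of dividing nuclei (972 to 1058) and of macrophages (958 to 985). In HF-HHT the order at the top was the reverse, with 1526 CPM in T and NK cells (1451 to 1604) above 1137 in mesothelial nuclei (1090 to 1185). T and NK cells then held the highest level of 20 of the 40 genes and mesothelial nuclei of 9. Adipocytes were again the lowest, at 844 CPM (826 to 862), and dividing nuclei (1079), macrophages (1005) and APCs (962) lay between. Free RNA, measured in barcodes with too few UMIs to hold a nucleus, carried the 40 genes at 1182 CPM in HF-PBS against 1239 in HF-HHT. It was thus above adipocytes, APCs, macrophages and dividing nuclei in both libraries. T and NK cells lay below it in HF-PBS and above it in HF-HHT, and mesothelial nuclei the other way round.

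**Figure D1:**
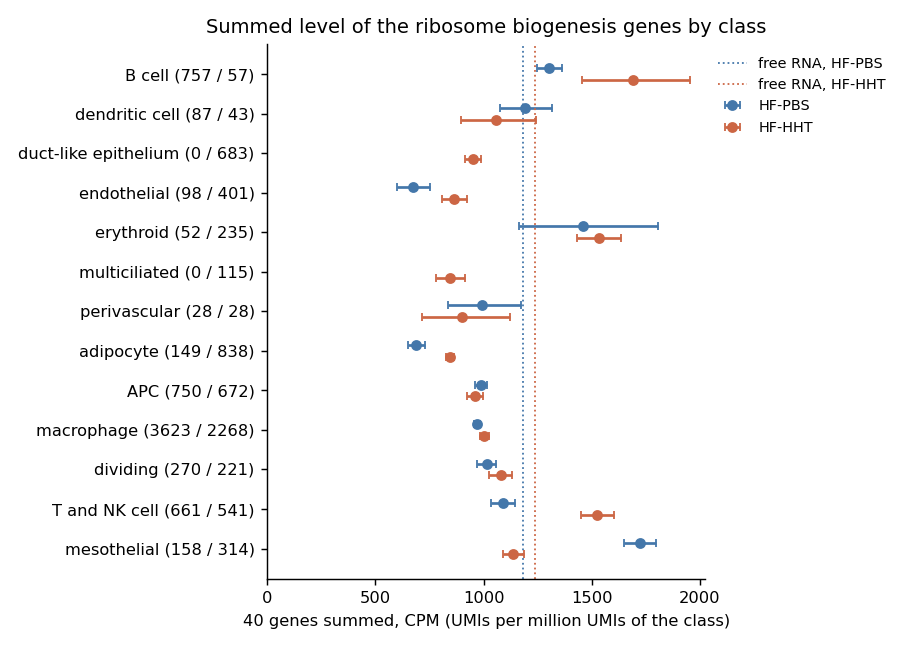
Summed level of the 40 genes in CPM (axis from 0) in each nucleus class of the HF-PBS and HF-HHT libraries, with 95% counting intervals, nuclei of HF-PBS and HF-HHT in brackets and dotted lines for the level in free RNA (the 52 erythroid nuclei of HF-PBS carry APC markers and few erythroid ones). Mesothelial nuclei go from 1722 to 1137 CPM and T and NK cells from 1091 to 1526, while APCs, macrophages and dividing nuclei change little.

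Ratios of HF-HHT over HF-PBS were taken per gene on the log2 scale of CPM for genes with at least 20 UMIs over both libraries in a class, and a gene was called higher or lower when its level changed 1.5-fold or more. Among the members, 20 of 35 measured in T and NK cells were higher and 0 were lower, while in mesothelial nuclei 19 of 40 were lower and 0 were higher. All genes measured in these classes set the background. In T and NK cells 21.1% of 9338 genes were higher and 7.6% lower, and in mesothelial nuclei 23.8% of 10659 genes were higher and 13.2% lower. The median log2 ratio of the members was 0.63 in T and NK cells against 0.12 over all genes, and −0.57 in mesothelial nuclei against 0.09. The other classes were nearer to their background. In adipocytes 7 members were higher and 2 lower of 40 (35.6% and 12.3% of all genes), with a median of 0.31 for the members and 0.31 for all genes. APCs had 4 higher and 4 lower of 40 (23.0% and 8.16%), with medians of −0.06 and 0.17. Macrophages had 5 higher and 0 lower of 40 (25.7% and 8.6%), with medians of 0.09 and 0.16, and dividing nuclei 5 higher and 5 lower of 35 (19.3% and 9.47%), with medians of 0.19 and 0.09. Whether the classes differ from each other in this ratio was not tested.

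**Figure D2:**
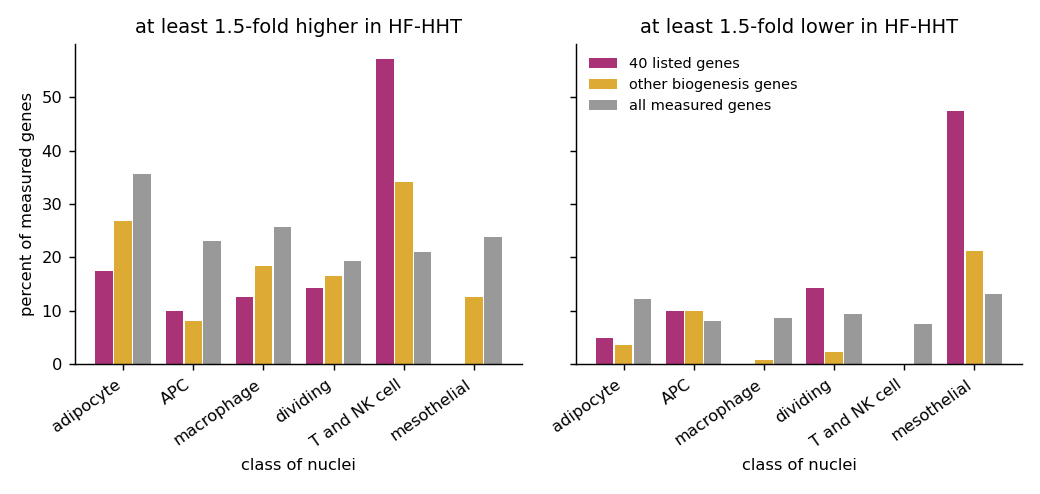
Percent of measured genes with CPM at least 1.5-fold higher (left panel) or lower (right panel) in HF-HHT than in HF-PBS, for the 40 genes, the other ribosome biogenesis genes and all measured genes of each class. The 40 genes stand above all measured genes in T and NK cells on the left (20 of 35) and in mesothelial nuclei on the right (19 of 40). On the right they also stand above them, by less, in APCs (10% against 8.16%) and dividing nuclei (14.3% against 9.47%).

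**Figure D3:**
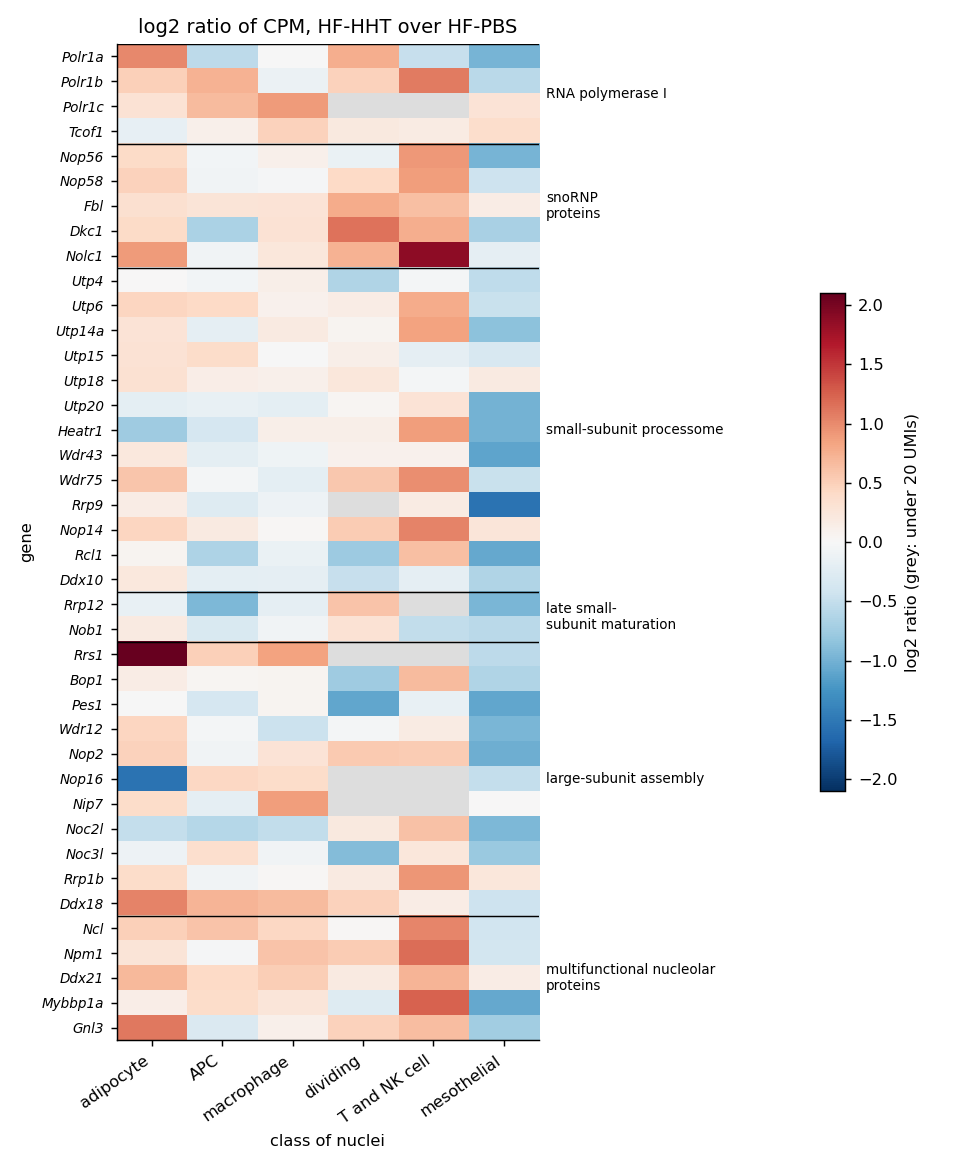
Heat map of the log2 ratio of HF-HHT over HF-PBS for each of the 40 genes, ordered by role, in the 6 classes, with grey for genes under 20 UMIs over both libraries. The T and NK cell column is mostly above 0 and the mesothelial column mostly below 0, with medians of 0.63 and −0.57.

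In T and NK cells, the nucleolar proteins and the snoRNP proteins rose together. All 5 of the nucleolar group were higher, and their summed level was 182 CPM in HF-PBS against 361 in HF-HHT. All 5 of the snoRNP group were also higher, from 108 to 204 CPM summed. Beside these, 6 of 13 processome genes, 3 of 8 measured large-subunit genes and 1 of 3 measured RNA polymerase I genes rose, and none of the 35 measured members fell. For 14 of the 35 the interval of the ratio lay above 0, and for none below it. Over all 9338 measured genes of the class it lay above 0 for 1565 and below 0 for 906. Besides the 2 highest and 2 lowest, the genes named here with values were chosen after their values were seen, for their counts.

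The largest ratio among the measured members was that of Nolc1, the snoRNP chaperone, which had 7 UMIs (5.13 CPM) in HF-PBS against 19 UMIs (18.8 CPM) in HF-HHT, a log2 ratio of 1.87 (0.56 to 3.37). It was followed by Mybbp1a, a nucleolar protein that also binds transcription factors, with 12 and 21 UMIs (8.79 and 20.8 CPM) and a log2 ratio of 1.24 (0.15 to 2.40). Both rest on few molecules, and their intervals are wide. The abundant nucleolar proteins were better counted. Ncl had 105 UMIs (76.9 CPM) in HF-PBS against 159 (157 CPM) in HF-HHT, a log2 ratio of 1.03 (0.67 to 1.40). Npm1 had 57 UMIs (41.7 CPM) and 95 (94.0 CPM), a log2 ratio of 1.17 (0.68 to 1.67). For both genes, whose products are among the most abundant proteins of the nucleolus, the CPM in HF-HHT was over 2-fold that in HF-PBS. Of the snoRNP core proteins, Nop58 had 61 and 83 UMIs (44.7 and 82.1 CPM, log2 0.88, 0.38 to 1.38) and Nop56 39 and 54 (28.6 and 53.4 CPM, log2 0.90, 0.28 to 1.54). Their catalytic partner Fbl rose by less, with 14 and 16 UMIs and a log2 ratio of 0.63 whose interval held 0 (−0.50 to 1.77).

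The rise in T and NK cells did not take in every step. Ddx10 and Wdr43, the processome genes with the most UMIs, were nearly level, with 252 and 163 UMIs for Ddx10 (185 and 161 CPM, log2 −0.20, −0.49 to 0.09) and 162 and 128 for Wdr43 (119 and 127 CPM, log2 0.09, −0.25 to 0.44). The processome genes that rose were Nop14, Wdr75, Heatr1, Utp14a, Utp6 and Rcl1, with log2 ratios from 0.63 to 1.04, while Utp4, Utp15, Utp18, Utp20 and Rrp9 were neither higher nor lower. The lowest measured members were Nob1, with 33 and 17 UMIs (24.2 and 16.8 CPM, log2 −0.52, −1.46 to 0.36), and Polr1a, the largest catalytic subunit of RNA polymerase I, with 51 and 27 UMIs (37.4 and 26.7 CPM, log2 −0.48, −1.21 to 0.22). Its partner subunit Polr1b rose, from 14 to 22 UMIs (10.3 to 21.8 CPM, log2 1.09, 0.05 to 2.17), and the difference between these subunits was not tested. Of the large-subunit genes, Rrp1b, Bop1 and Noc2l rose (log2 0.92, 0.66 and 0.61), and Nop2, Pes1, Wdr12, Noc3l and Ddx18 did not pass the 1.5-fold limit. Rrp12, Nip7, Rrs1, Polr1c and Nop16 had under 20 UMIs in this class.

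**Figure D4:**
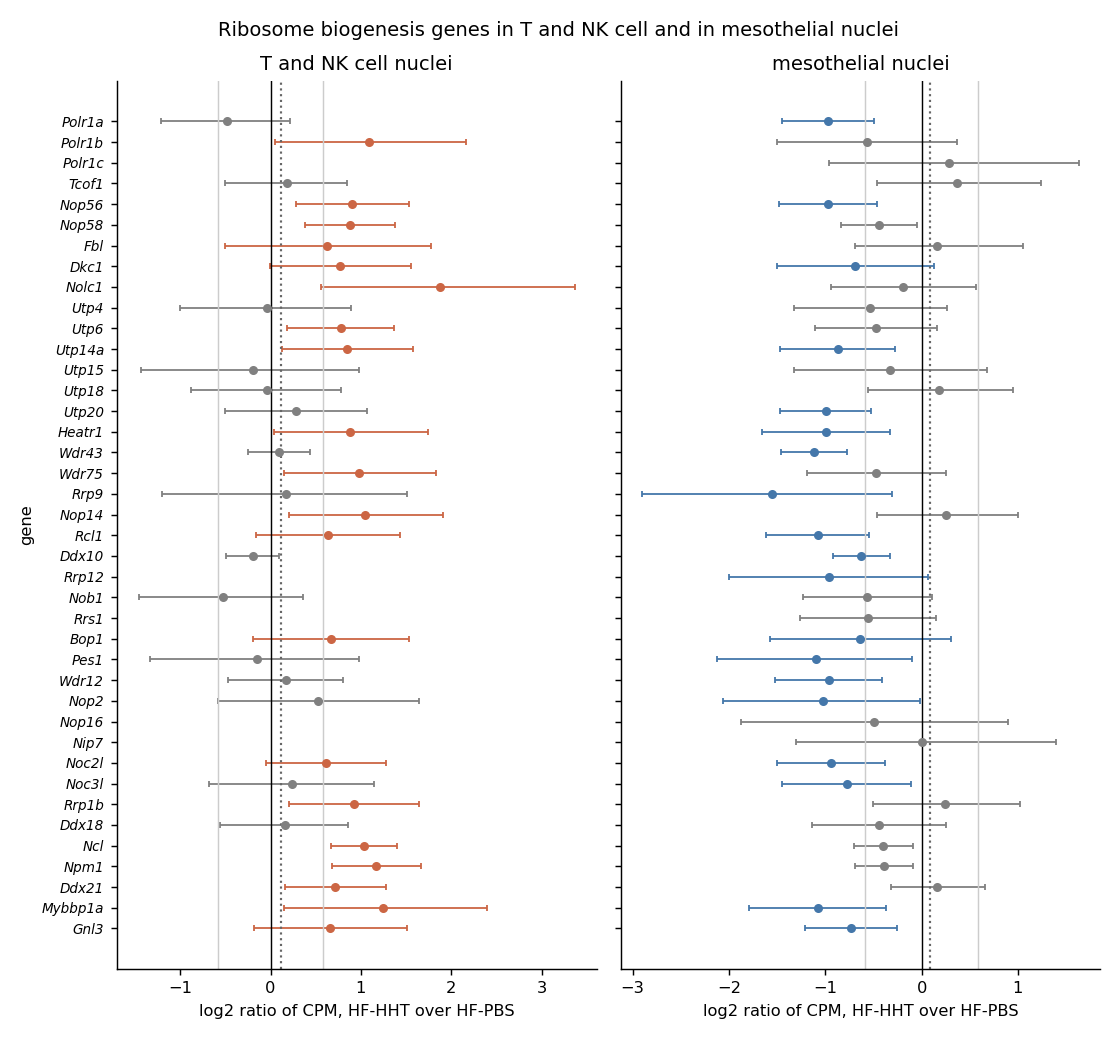
Log2 ratio of HF-HHT over HF-PBS with 95% counting intervals for each measured member in T and NK cells and in mesothelial nuclei, with light lines at the 1.5-fold limits and a dotted line at the median of all genes. In T and NK cells 20 members lie above the upper limit (orange), and in mesothelial nuclei 19 lie below the lower limit (blue).

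Other values moved with the members in T and NK cells. The summed level of dividing-cell markers, all 7 detected in both libraries, was 322 CPM in HF-PBS against 678 in HF-HHT, erythroid markers went from 12.5 to 477 CPM and adipocyte markers from 173 to 540, while the class's own markers were 8686 and 7659. Free RNA made up at most 21.7% of the UMIs of the class in HF-PBS and 17.5% in HF-HHT. Without nuclei that held a UMI of a dividing-cell marker, 564 nuclei were left in HF-PBS and 418 in HF-HHT. There 13 members were higher and 4 lower of 33, with a summed level of 1089 and 1359 CPM. The median log2 ratio was then 0.41 for the members and 0.09 for all genes. Without nuclei with an erythroid marker UMI, 645 of 661 nuclei were left in HF-PBS but 312 of 541 in HF-HHT. Of 33 measured members, 14 were then higher and 3 lower (1090 and 1481 CPM), with medians of 0.48 and 0.10. In nuclei of the middle depths (UMIs between the 25th and 75th percentile of the class), 13 were higher and 2 lower of 24, with Ncl at 0.63 and Ddx21 at 0.11, which then did not pass the limit. The medians at these depths were 0.61 for the members and 0.07 for all genes. With TMM scaling, which lowered log2 ratios by 0.15 here, 14 were higher and 2 lower of 35, with medians of 0.48 and −0.03. The share of all genes called under these settings is not given. The summed level of HF-HHT was thus above that of HF-PBS without dividing or erythroid marker nuclei, and the part of dividing cells in what remains was not tested.

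Within the class, finer clusters gave 3 groups of T and NK nuclei, described by their leading genes. In the group led by Pard3 and Il23r (449 nuclei in HF-PBS against 284 in HF-HHT) the summed level was 1085 and 1444 CPM, and 12 members were higher and 2 lower of 28 measured (19.1% and 9.59% of all genes). The group led by Klra8 and Ncr1, which are NK-cell receptors (191 and 221 nuclei), had 1093 and 1315 CPM, with 5 higher and 5 lower of 18 (19.5% and 12.7%). The smallest group, led by the cell-division genes Kif11 and Top2a (21 and 36 nuclei), had 1131 and 2445 CPM. Without that group the class had 15 members higher and 2 lower of 33, and a summed level of 1087 and 1391 CPM. The median log2 ratio was then 0.52 for the members and 0.10 for all genes. Dividing-cell and erythroid markers also moved in the groups that remained. In the Pard3 group they were at 78.2 and 12.5 CPM in HF-PBS and at 224 and 449 in HF-HHT, and in the Klra8 group at 60.6 and 10.5 CPM and at 202 and 540, so leaving out the Kif11 group did not remove the difference in dividing-cell markers.

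In mesothelial nuclei, which line the surface of the depot, genes of each role fell. The class held 7 of 13 processome genes, 6 of 11 large-subunit genes, 2 of 5 snoRNP genes, 2 of 5 nucleolar genes, 1 of 4 RNA polymerase I genes and 1 of 2 late small-subunit genes that were lower in HF-HHT. The processome genes summed to 661 CPM in HF-PBS against 396 in HF-HHT, and the large-subunit genes to 280 and 177 CPM. All 7 mesothelial markers were detected in both libraries. Over all 10659 measured genes of the class, the interval of the ratio lay below 0 for 1663 and above 0 for 2191. For 19 of the 40 members it lay below 0, and for none above. These were not all the same genes as the 19 called lower, since Bop1, Dkc1 and Rrp12 were lower with intervals that held 0. As in T and NK cells, the genes named with values beside the 2 highest and 2 lowest were chosen after their values were seen.

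Rrp9, a protein of the snoRNP that guides the early cuts of the precursor, had the lowest ratio, with 17 UMIs (13.8 CPM) in HF-PBS against 9 (4.69 CPM) in HF-HHT, a log2 ratio of −1.55 (−2.90 to −0.31). Wdr43, a processome scaffold protein, was counted far more often, with 173 UMIs (140 CPM) and 124 (64.6 CPM), 2.17-fold lower (log2 −1.12, −1.46 to −0.77). The same gene was nearly level in T and NK cells. Utp20 had 90 and 70 UMIs (72.8 and 36.5 CPM, log2 −0.997, −1.47 to −0.53), and Rcl1 72 and 53 (58.2 and 27.6 CPM, log2 −1.08, −1.62 to −0.54). Heatr1, Utp14a and Ddx10 were the other processome genes that fell, by 0.99, 0.87 and 0.63 on the log2 scale. Polr1a, with 87 and 69 UMIs (70.4 and 35.9 CPM), fell by 0.97 (log2 interval −1.45 to −0.50), whereas Polr1b with 21 and 22 UMIs did not reach the limit (log2 −0.57, −1.50 to 0.37).

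Among the large-subunit genes, all 3 members of the Bop1, Pes1 and Wdr12 complex passed the limit, with log2 ratios of −0.63, −1.09 and −0.96. For Bop1, with 21 and 21 UMIs, the interval held 0 (−1.58 to 0.31). Nop2, Noc2l and Noc3l also fell (log2 −1.03, −0.94 and −0.78). The snoRNP genes split. Nop56 fell (77 and 61 UMIs, 62.3 and 31.8 CPM, log2 −0.97, −1.48 to −0.47), and so did Dkc1, with an interval that held 0 (log2 −0.69, −1.51 to 0.13). Fbl was at 15.4 and 17.2 CPM (log2 0.16, −0.70 to 1.06). Mybbp1a and Gnl3 fell by 1.07 and 0.73 on the log2 scale, and Rrp12 by 0.96. Ncl and Npm1 stayed within the 1.5-fold limit. Ncl had 163 and 192 UMIs (132 and 100 CPM, log2 −0.40, −0.71 to −0.09), and Npm1 175 and 207 (142 and 108 CPM, log2 −0.39, −0.69 to −0.09). The highest members were Tcof1, with 19 and 38 UMIs (15.4 and 19.8 CPM, log2 0.37, −0.47 to 1.24), and Polr1c, with 9 and 17 (7.28 and 8.86 CPM, log2 0.28, −0.96 to 1.63), so no member rose.

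The mesothelial class also changed in other measures. Its own markers summed to 1720 CPM in HF-PBS against 3746 in HF-HHT, APC markers to 3535 and 3873, dividing-cell markers to 22.6 and 185, and erythroid markers to 26.7 and 719. APC markers were thus above the class's own in both libraries. The median depth was 7160.5 UMIs per nucleus in HF-PBS against 5378 in HF-HHT, and free RNA was at most 10.5% and 9.52%. Nuclei of the middle depths numbered 76 in HF-PBS, also under 100, and 160 in HF-HHT. When these alone were compared, 10 members were lower and 3 higher of 31, with 1578 and 1104 CPM summed. The median log2 ratio was −0.44 for the members and 0.03 for all genes, and Utp20 (log2 −0.40) and Mybbp1a (−0.35) no longer passed the limit. Without nuclei that held an erythroid marker UMI, 15 were lower and 1 higher of 34 (1703 and 1111 CPM), with medians of −0.54 and 0.03. Polr1a (log2 −0.42), Rcl1 (−0.51) and Wdr12 (−0.27) then no longer passed the limit. Their part in the result was not tested beyond these values.

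In macrophages, the largest class, the members moved little as a whole, but a few rose. Polr1c had 43 UMIs (1.995 CPM) in HF-PBS against 40 (3.69 CPM) in HF-HHT and so rose by 0.89 on the log2 scale (0.23 to 1.54). The large-subunit factors Nip7 (83 and 77 UMIs, 3.85 and 7.11 CPM, log2 0.88, 0.42 to 1.35) and Rrs1 (65 and 59 UMIs, 3.02 and 5.45 CPM, log2 0.85, 0.32 to 1.38) rose too. All of these are low in this class. Ddx18 had 280 and 222 UMIs (12.99 and 20.5 CPM, log2 0.66, 0.40 to 0.92), and Npm1 had 729 and 557 (33.8 and 51.4 CPM, log2 0.60, 0.44 to 0.77). These 5 genes were the members counted as higher. The lowest members were Noc2l with 1019 and 358 UMIs (47.3 and 33.0 CPM, log2 −0.52, −0.69 to −0.34), Wdr12 with 975 and 359 (45.2 and 33.1 CPM, log2 −0.45, −0.63 to −0.27) and Wdr75 (log2 −0.21), none of which passed the limit. The processome genes ranged from −0.21 to 0.19, and none of the 13 was higher or lower. With TMM scaling, which lowered ratios by 0.20 in macrophages, 3 members were higher and 2 lower, and Npm1 (log2 0.41) was no longer higher. Erythroid markers were at 6.77 CPM in HF-PBS against 175 in HF-HHT, and free RNA was at most 12.2% and 15.1%.

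Finer clusters of macrophages moved in opposite directions. In the cluster led by Cd163, Lyve1 and F13a1, genes of tissue-resident macrophages (131 nuclei in HF-PBS against 134 in HF-HHT), the summed level was 1332 and 788 CPM. There 19 of 30 measured members were lower and 0 higher, against 11.3% and 26.3% of all genes in that cluster. The median log2 ratio was −0.78 for the members and 0.16 for all genes. Utp20 had 73 and 17 UMIs (log2 −1.98), Nop58 57 and 20 (log2 −1.38), Wdr43 121 and 49 (log2 −1.18) and Ddx10 156 and 80 (log2 −0.84). The box C/D proteins Fbl (16 and 4 UMIs) and Nop56 (28 and 7 UMIs) both had log2 ratios of −1.87. In these nuclei 8 of 12 measured processome genes and all 3 measured snoRNP genes fell, while the processome genes Utp4, Utp6, Utp15 and Nop14 did not, and Nop14 was the highest measured member at 0.49. In the cluster led by Zranb3 and Fat3, with Gpnmb, a gene of lipid-laden macrophages, and Mmp12 behind them (995 and 386 nuclei), the summed level was 982 and 1235 CPM. There 11 of 40 members were higher and 0 lower, against 18.2% and 7.08% of all genes. The median log2 ratio was 0.35 for the members and 0.14 for all genes. Among the members that rose were Npm1 (266 and 125 UMIs, log2 0.78), Ncl (381 and 165 UMIs, log2 0.66), Dkc1 (log2 1.10), Ddx18 (1.04) and Polr1c (0.95). The genes named in finer clusters were chosen after their values were seen.

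The macrophage clusters also differed in depth and in markers. The median UMIs per nucleus were 6104 and 5164 in the Cd163 cluster and 7162 and 4802 in the Gpnmb cluster. In the Cd163 cluster, macrophage markers summed to 16954 CPM in HF-PBS against 12325 in HF-HHT, adipocyte markers to 125 and 329 and erythroid markers to 6.78 and 254. In the Gpnmb cluster, macrophage markers were 5388 and 4113 CPM, erythroid markers 4.16 and 138 and dividing-cell markers 23.3 and 67.6. In the remaining clusters of the class the median ratio of the members lay between −0.21 and 0.16. The value of −0.21 belonged to the cluster led by Klra2 and Vcan, the latter a gene of monocytes, with 332 nuclei in HF-PBS against 775 in HF-HHT, and there 3 members were higher and 6 lower of 38, against 22.0% and 12.7% of all genes. When the Cd163 cluster was left out, 6 members of the macrophage class were higher and 0 lower.

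**Figure D5:**
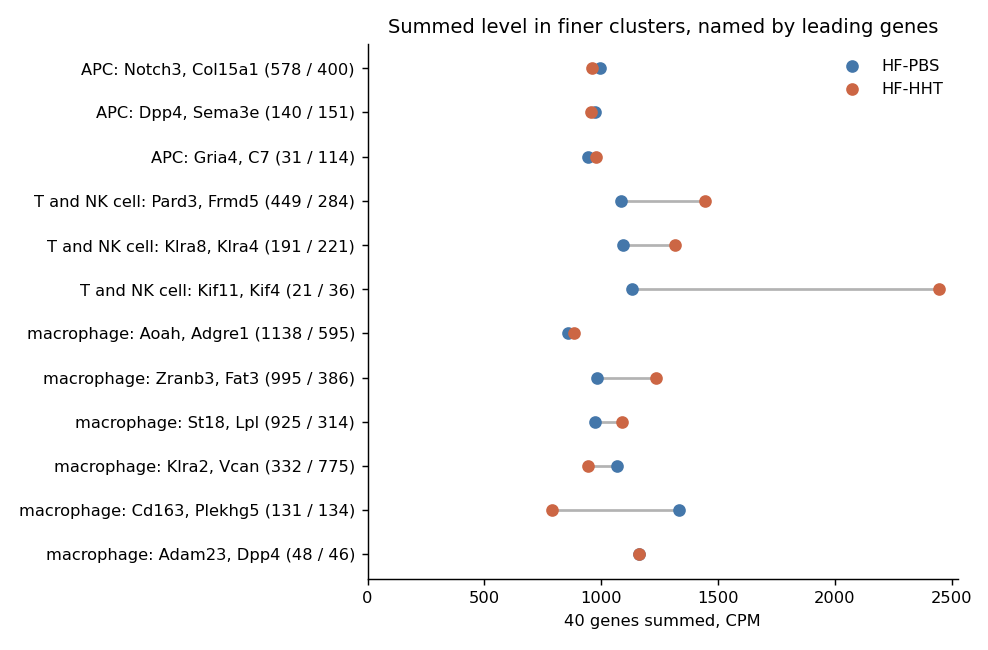
Summed level of the 40 genes in CPM (axis from 0) in the finer clusters of APCs, T and NK cells and macrophages in both libraries, with clusters given by leading genes and the nuclei of HF-PBS and HF-HHT in brackets. The macrophage cluster led by Cd163 goes from 1332 to 788 CPM and the T and NK cluster led by Kif11 from 1131 to 2445.

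In adipocytes the median log2 ratio was 0.31 both for the members and for all genes, but smaller shares of the members were called. Of the members 17.5% were higher and 5% lower, against 35.6% and 12.3% of all genes. The summed level of the members was 690 CPM in HF-PBS against 844 in HF-HHT. The interval of the ratio lay above 0 for 9 of the 40 members and below 0 for 2. Over all 12551 measured genes of the class it lay above 0 for 3998 and below 0 for 1840. Few nuclei (149) stood for HF-PBS, so several members rest on under 20 UMIs there. Gnl3 had 24 UMIs (12.5 CPM) in HF-PBS against 265 (26.8 CPM) in HF-HHT, a log2 ratio of 1.11 (0.50 to 1.77). Ddx18 had 18 and 190 UMIs (9.35 and 19.2 CPM, log2 1.04, 0.34 to 1.83), and Polr1a had 30 and 309 (15.6 and 31.3 CPM, log2 1.01, 0.46 to 1.60). Polr1a, which fell in mesothelial nuclei, thus rose here. Nolc1 (11 and 105 UMIs, log2 0.90, −0.00 to 1.94), Ddx21 (20 and 164 UMIs, log2 0.68, 0.00 to 1.43) and Wdr75 (30 and 231 UMIs, log2 0.59, 0.03 to 1.19) also passed the limit, with intervals that reached or nearly reached 0.

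The largest ratio of any measured member in any class was that of Rrs1 in adipocytes, and it did not stand alone. Rrs1 had 7 UMIs (3.64 CPM) in HF-PBS against 153 (15.5 CPM) in HF-HHT, a log2 ratio of 2.09 (1.01 to 3.43). Adhfe1, the gene that follows 493 bases downstream on the same strand and codes for a mitochondrial alcohol dehydrogenase, had 64 UMIs (33.2 CPM) and 3294 (334 CPM), a log2 ratio of 3.33 (2.97 to 3.71). Adhfe1 was chosen after its values were seen. Its ratio was above 0 in every compared class, with 0.95 in mesothelial nuclei, where Rrs1 was at −0.55, and 1.65 in macrophages, where Rrs1 rose by 0.85. Whether reads of one gene were counted for the other was not tested.

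The adipocyte members that fell were Nop16, with 12 and 21 UMIs (6.23 and 2.13 CPM, log2 −1.55, −2.64 to −0.39), and Heatr1, with 50 and 152 (26.0 and 15.4 CPM, log2 −0.75, −1.22 to −0.26). Noc2l, the next lowest, had 31 and 113 UMIs (16.1 and 11.4 CPM, log2 −0.49, −1.08 to 0.13). Nop16 is also the member with the fewest UMIs in adipocytes of HF-HHT. Heatr1 was at −0.16 when nuclei above the 95th percentile of UMIs and genes were kept, and was then no longer lower. With TMM scaling, which lowered ratios by 0.20 in adipocytes, 5 members were higher and 3 lower. Adipocyte markers, all 9 detected in both libraries, were at 6841 CPM in HF-PBS against 8940 in HF-HHT, erythroid markers at 7.27 and 156, and free RNA was at most 6.01% and 3.59%.

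In APCs, the fibroblast-like cells from which new adipocytes arise, the members split evenly. Ncl had 214 UMIs (42.2 CPM) in HF-PBS against 178 (64.3 CPM) in HF-HHT, a log2 ratio of 0.61 (0.31 to 0.90). Ddx18 had 85 and 76 UMIs (16.8 and 27.4 CPM, log2 0.71, 0.25 to 1.17), and Polr1b 44 and 40 (8.68 and 14.4 CPM, log2 0.74, 0.08 to 1.39). Polr1c passed the limit with 23 and 20 UMIs (log2 0.67), and its interval held 0 (−0.27 to 1.60). On the other side, Rrp12 fell by 0.95 on the log2 scale, with 53 and 15 UMIs (10.5 and 5.42 CPM, −1.88 to −0.10). Dkc1 (58 and 20 UMIs, log2 −0.66, −1.48 to 0.09), Rcl1 (170 and 59 UMIs, log2 −0.65, −1.11 to −0.22) and Noc2l (139 and 50 UMIs, log2 −0.60, −1.10 to −0.13) fell too. Polr1a did not pass the limit, at −0.55 (−0.98 to −0.14), and the difference between the RNA polymerase I subunits was not tested. With TMM scaling, which lowered ratios by 0.20 in APCs, 0 were higher and 5 lower, and the split between higher and lower calls thus depends on the scaling. In nuclei of the middle depths, Ncl was at 0.15 and no longer higher. Median depth was 5804.5 UMIs in HF-PBS against 3347 in HF-HHT.

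In dividing nuclei 3 of 5 snoRNP genes rose and 3 of 8 measured large-subunit genes fell, where 19.3% of all genes of the class were higher and 9.47% lower. The 2 highest members were Dkc1, with 14 UMIs (6.58 CPM) in HF-PBS against 22 (14.5 CPM) in HF-HHT (log2 1.14, 0.11 to 2.22), and Fbl, with 18 and 22 (8.46 and 14.5 CPM, log2 0.78, −0.19 to 1.76). The lowest were Pes1, with 24 and 8 UMIs (11.3 and 5.27 CPM, log2 −1.10, −2.46 to 0.10), and Noc3l, with 37 and 14 (17.4 and 9.22 CPM, log2 −0.91, −1.92 to 0.01). Counts were low, and of the 10 members counted as higher or lower only Dkc1 and Polr1a had an interval that did not hold 0. Nolc1, Polr1a and Rrp12 were the other members that rose, and Rcl1, Bop1 and Utp4 the others that fell. Macrophage markers were at 4197 CPM in HF-PBS and 4305 in HF-HHT in this class, above its dividing-cell markers at 1999 and 2735. Erythroid markers were at 4.23 and 102, adipocyte markers at 136 and 383, and the median depth was 7507 and 5902 UMIs. Their part in these ratios was not tested.

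Across the 6 classes, the members differed in how often they moved. Per class, 19.3% to 35.6% of all genes were higher and 7.6% to 13.2% lower. The share of all genes called in several classes is not given, so the following describes single members only. Ddx18 and Nolc1 were higher in 3 of the 6 classes and lower in none. Ddx18 rose in adipocytes, APCs and macrophages, and Nolc1 in adipocytes, T and NK cells and dividing nuclei. Rcl1 was lower in 3 classes (APCs, mesothelial and dividing nuclei) and higher in T and NK cells. Fbl and Ddx21 were above the median of all genes in all 6 classes, whereas Pes1, Utp4 and Ddx10 were above it in none. Utp15, Utp18, Tcof1 and Nob1 were neither higher nor lower in any of the 6 classes, and the ratios of Utp18 stayed between −0.04 and 0.31.

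The other genes of the pathway moved in the direction of the members in T and NK cells and in mesothelial nuclei, but by less. Of 115 further ribosome biogenesis genes, 88 were measured in T and NK cells, where 30 were higher and 0 lower. Their median log2 ratio was 0.39, and 34.1% were higher, against 57.1% of the members and 21.1% of all genes. In mesothelial nuclei 22 of 104 fell and 13 rose, and their median was −0.12. There 21.2% were lower and 12.5% higher, against 13.2% and 23.8% of all genes, so this wider list moved less than the 40 genes did. In adipocytes 30 of 112 were higher and 4 lower, in APCs 9 of 111 higher and 11 lower, in macrophages 21 of 115 higher and 1 lower, and in dividing nuclei 15 of 91 higher and 2 lower. As shares, 26.8% were higher in adipocytes against 35.6% of all genes, 8.11% in APCs against 23.0%, 18.3% in macrophages against 25.7% and 16.5% in dividing nuclei against 19.3%, so in these 4 classes the list did not exceed the background on the higher side. On the lower side, the shares were 3.57%, 9.91%, 0.87% and 2.2% against 12.3%, 8.16%, 8.6% and 9.47%. Several genes of this list had ratios far from 0. In macrophages Wdr3, a processome protein, had 1439 and 388 UMIs and fell by 0.90 on the log2 scale, while Imp3 (48 and 70 UMIs) and Bysl (64 and 70 UMIs) rose by 1.54 and 1.12. Taf1a, the next lowest after Wdr3, was at −0.55 and did not pass the limit. In adipocytes Wdr18 (4 and 76 UMIs) and the RNA exonuclease Dis3 (5 and 91 UMIs) had the highest ratios, 1.89 and 1.83, and rest on few UMIs in HF-PBS. The lowest with at least 50 UMIs in a library were Taf1a (38 and 138 UMIs) at −0.50 and Rpf2 (25 and 91 UMIs) at −0.49, which did not pass the limit, and the 4 genes that fell in adipocytes, Gar1, Nol6, Noc4l and Ppan, had fewer UMIs and are named after their values were seen. In APCs Sbds rose by 0.74, Rpf1 and Exosc9 were both at −0.89 and fell, and Ddx27 was at 0.54.

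Genes of the MYC network, whose product MYC drives many ribosome biogenesis genes and whose MXD proteins oppose it, were measured in part. Of 13 listed, 1 was higher and 4 lower of 11 measured in adipocytes, 1 higher and 2 lower of 10 in APCs, 2 higher and 1 lower of 10 in macrophages, 3 higher and 1 lower of 9 in T and NK cells, 1 higher and 1 lower of 9 in dividing nuclei and 1 higher and 3 lower of 10 in mesothelial nuclei. With so few genes, these counts stand beside shares over all genes of 35.6% higher and 12.3% lower in adipocytes, 23.0% and 8.16% in APCs, 25.7% and 8.6% in macrophages, 21.1% and 7.6% in T and NK cells, 19.3% and 9.47% in dividing nuclei and 23.8% and 13.2% in mesothelial nuclei. Myc itself was low, with 12 and 48 UMIs in adipocytes (log2 −0.36). Its log2 ratio was −0.59 in APCs and −0.52 in macrophages. The MYC antagonist Mxd1 was at −0.92 in APCs and at 1.15 in macrophages, and in adipocytes the antagonists Mxd4 and Mxi1 fell by 1.04 and 0.80. In T and NK cells Myc had 10 and 14 UMIs (log2 0.92, −0.36 to 2.25), a value named after it was seen. The log2 ratio of Myc was thus below 0 in adipocytes, APCs and macrophages, and above 0 in T and NK cells. Its interval held 0 in T and NK cells and also in adipocytes. The intervals for APCs and macrophages are not given here.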

How the data were processed

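The authors sorted DAPI-stained nuclei of frozen tissue, captured them with the 10x 3′ assay and counted reads per gene with Cell Ranger on mm10 (5.0.0 per the labels, while the study's reporting summary names a later version). The deposited values are raw UMI counts for every barcode, neither normalized nor filtered. The sources used here do not say if intronic reads were included. No column of values was left unused.

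From these counts, nuclei were called by depth (3000 expected) and, from 500 UMIs upward, by comparing each barcode with free RNA (10000 simulations, false discovery rate 0.01), giving 7733 nuclei in HF-PBS and 7607 in HF-HHT. Doublets were removed with Scrublet in scanpy 1.11.5 (500 and 497). The limits of the study were kept: over 400 genes, neither UMIs nor genes at the 95th percentile or above, mitochondrial UMIs below 0.5%. Seurat 5.3.0 (R 4.3.3) integrated the libraries (2000 features, 30 dimensions) without the genes of the lists, giving 14 clusters at resolution 0.15, named from 18 marker lists, and 25 finer clusters at resolution 1. Where an alternative kept more nuclei, they took the class of their nearest neighbours, which returned the own class of 98.8% and 98.5% of the nuclei checked.

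UMIs were summed per class and divided by the class total (CPM). Ratios carry exact binomial (Clopper-Pearson) 95% intervals and sums exact Poisson intervals, from scipy 1.17.1 with pandas 2.3.3 and numpy 2.4.6 in Python 3.11.15. The most free RNA a class could hold was set by the markers of other classes. Ratios were checked on simulated sums. The 11 alternative settings listed at the start, with TMM scaling from edgeR 4.0.16, and 4 added after the data were seen are given in the closing section. In adipocytes, APCs and macrophages the genes named were members past the limit with at least 50 UMIs in the library with more, and at least 3 each way, and in other classes the 2 highest and 2 lowest. Of the other pathway genes, the 2 highest and 2 lowest with at least 50 UMIs in the library with more were named in adipocytes, APCs and macrophages, and any gene of the MYC network there. The members and all lists were chosen with earlier results of these data known.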

Additional observations from a re-analysis of the deposited data

Results flagged for a closer look

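The members moved in opposite directions in different nuclei. The median log2 ratio of the 40 genes, over those measured, was 0.63 in T and NK cells and −0.57 in mesothelial nuclei. Over all genes the medians were 0.12 and 0.09. Within macrophages the median of the members was 0.35 in the finer cluster led by Zranb3 and Fat3, with Gpnmb, against 0.14 over all genes. In the finer cluster led by Cd163 and F13a1 it was −0.78, against 0.16 over all genes. The difference between these classes or clusters was not tested, since each condition has 1 library.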

How the results depend on the processing

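The share of all genes called under each alternative is not given, so the counts of this section stand without a background. With TMM scaling, members higher in APCs numbered 0 and in macrophages 3, and members lower in T and NK cells 2 and in macrophages 2. Median-of-ratios scaling gave 0 and 3 higher in APCs and macrophages, 12 higher and 2 lower in T and NK cells and 2 lower in macrophages. With no minimum of UMIs, 1 was lower in T and NK cells and 8 in dividing nuclei. With a minimum of 50 UMIs, 1 was lower in adipocytes, and 1 higher and 1 lower in dividing nuclei. At a 2-fold limit, 6 were higher in T and NK cells, 4 higher and 1 lower in adipocytes, 1 higher and 1 lower in dividing nuclei, 6 lower in mesothelial nuclei, 0 higher in macrophages and 0 either way in APCs. After free RNA was subtracted, 2 were lower in T and NK cells and 3 higher in macrophages. With no upper limits, 12 were higher and 1 lower in adipocytes and 8 higher in dividing nuclei. Standardized to finer clusters, 1 was lower in T and NK cells.

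The remaining alternatives were chosen after seeing the data. Without nuclei with an erythroid marker UMI, 3 were lower in T and NK cells, 11 higher and 0 lower in adipocytes, 3 higher in macrophages and 1 higher in mesothelial nuclei. Mesothelial nuclei of HF-HHT then numbered 94, under the 100 asked of a compared class. In nuclei of the middle depths, 13 were higher and 2 lower in T and NK cells, 2 higher in APCs, 15 higher in adipocytes, 9 higher and 3 lower in dividing nuclei, 1 lower in macrophages, and 3 higher and 10 lower in mesothelial nuclei. At these depths HF-PBS held 82 adipocyte and 76 mesothelial nuclei, again under 100. Without nuclei with a dividing marker UMI, 13 were higher and 4 lower in T and NK cells, where Gnl3 turned to −0.032, and without the cluster led by Kif11 and Top2a 2 were lower there. The causes were not tested, beyond fewer nuclei or genes. Of the other values, 203 class counts or medians and 917 ratios of single genes stayed close to those reported, and 19 ratios moved by more than their counting error without a change of sign. No paired analysis was possible because each condition has 1 library. As limits of depth, adipocytes of HF-PBS held 1328 UMIs of all 40 genes, and 5 members each in T and NK cells and in dividing nuclei were under 20 UMIs.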

Other observations

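Classes under 100 nuclei in a library were not compared, and their levels are given as values. The 40 genes summed to 1304 CPM in 757 B-cell nuclei of HF-PBS and to 1691 CPM (95% interval 1454 to 1957) in the 57 B-cell nuclei of HF-HHT. In the 235 erythroid nuclei of HF-HHT, with erythroid markers at 20300 CPM, they summed to 1532 CPM. The 52 nuclei grouped with them in HF-PBS summed to 1460 CPM, but they held erythroid markers at 189 CPM, with 6 of 8 not detected, and APC markers at 9274 CPM, so they are not erythroid by their own markers and no comparison is made. The members summed in endothelial nuclei to 674 and 866, in dendritic cells to 1192 and 1060, and in perivascular nuclei to 994 and 902. Duct-like epithelium of HF-HHT was at 951 CPM and multiciliated nuclei at 846.

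Of the members under 20 UMIs in T and NK cells, Rrp12 had 2 UMIs in HF-PBS against 13 in HF-HHT (1.46 and 12.9 CPM), a ratio of 8.78 whose log2 interval ran from 0.99 to 6.32. Nip7 had 4 and 8 UMIs, Rrs1 4 and 6, Polr1c 4 and 5 and Nop16 3 and 1.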
